A study of Mus musculus with 9 samples.

Results

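The 3' UTR counts of RNA crosslinked to Chtop lacking exon 5 were compared with the 3' UTR counts of size-matched input RNA. The material is iCLIP, in which protein is crosslinked to the RNA it touches with ultraviolet light, recovered with an antibody and the attached RNA fragments are sequenced. The comparison used 6 of the 9 libraries of the study: 3 anti-FLAG immunoprecipitates from N2a Flp-In rtTA cells expressing FLAG-Chtop without exon 5, and 3 inputs. All cells were of this mouse neuroblastoma line, carried a doxycycline-inducible cDNA, received doxycycline at 2 µg/mL for 24 hours and were crosslinked at 254 nm and 0.15 J/cm2. Each input was 2% of a lysate run on the gel with no antibody step, cut from the membrane over the same size range. The inputs did not share 1 line: replicate 1 came from cells expressing FLAG-Chtop without exon 5, replicate 2 from cells expressing FLAG-Chtop with exon 5, and cells expressing FLAG-GFP gave replicate 3. The remaining 3 libraries, immunoprecipitates of FLAG-Chtop with exon 5, entered the fit for the shared spread and 1 direct comparison. Replicates were independent and handled on separate days, per the labels' protocols. The sources used here do not say whether the lines were clonal or how much endogenous Chtop they still made. Of the 22442 genes in the count tables, 17858 had a 3' UTR entry. A count was found for 9671 of these in the immunoprecipitates and for 6108 in the inputs, and 4984 had enough counts to be tested.

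Chtop is a small RNA-binding protein with an arginine- and glycine-rich region that is methylated by PRMT1. It belongs to the TREX complex, which binds processed mRNA in the nucleus and passes it to the export receptor Nxf1, and it stimulates the RNA helicase Ddx39b of that complex. The 3' UTR is the part of an mRNA downstream of the stop codon, where many proteins and microRNAs bind.

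The 3' UTR table held 187453, 290833 and 507636 counts in the immunoprecipitates without exon 5, against 54799, 87051 and 38926 in the inputs. Because of this gap, 3 counts in a library were worth 8.44 to 17.4 CPM (a library's counts divided by its TMM-adjusted size and put on the usual scale) in the immunoprecipitates and 34.5 to 42.2 CPM in the inputs. Between 6610 and 8046 genes had a 3' UTR count in an immunoprecipitate, against 1842 to 4835 in an input. Across genes, log CPM correlated at 0.566 to 0.683 among the immunoprecipitates, at 0.239 to 0.344 among the inputs and at 0.125 to 0.237 between the 2 kinds, as a description over genes of unequal depth. The 3' UTR supplied 28.8% ± 1.26 of all gene-part counts in the immunoprecipitates and 50.2% ± 1.31 in the inputs (SD, n = 3 each). That difference of −21.4 percentage points gave a two-sided exact permutation p of 0.1, the smallest that 3 against 3 libraries allow. The coding sequence (CDS) held 66.7% to 68.8% of the counts in the immunoprecipitates and 45.4% to 47.6% in the inputs.

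Against input, the 3' UTR counts of 612 genes were higher in the isoform without exon 5, which is 12.3% of the genes tested, and those of 19 were lower, which is 0.381% (edgeR quasi-likelihood test, Benjamini-Hochberg threshold 0.05). The genes with the highest 3' UTR levels among those that rose were Avl9, Fbxl20, Noct, Irs2, Hjurp and Peg3. The mitochondrial leucyl-tRNA synthetase gene Lars2 led those that fell. Most of the higher genes had hardly any input counts: 439 were at 0 in every input, 69 had 1 to 3 input counts, 47 had 4 to 9 and 57 had at least 10. Among the 2849 tested genes with at least 10 input counts, 2.00% were called higher. Of the 1068 tested genes at 0 in every input, 41.1% were, but such genes could enter the test through the immunoprecipitates alone and could be called in that direction alone. The median log2 fold change over all genes tested was 1.41, or 0.96 with genes at 0 in every input set to a lower bound, so each value below should be read against that shift. Among tested genes with at least 10 input counts the median was 0.14. Scaling by 3' UTR library size with no TMM factor put the median of all genes tested at 0.84, and scaling by gene totals put it at 0.06.

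**Figure D1:**
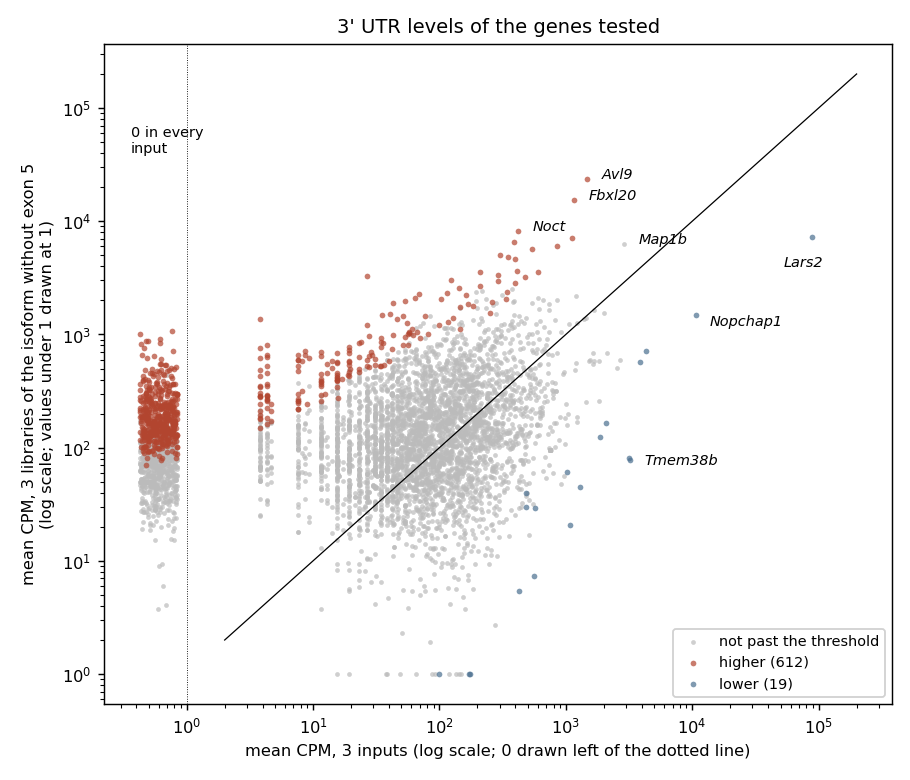
Each point is 1 of 4984 genes tested, with its mean 3' UTR CPM over the 3 libraries of the isoform without exon 5 on the vertical axis and over the 3 inputs on the horizontal axis, both on log scales, with genes at 0 in every input left of the dotted line and the solid line marking equal levels. The 612 genes called higher are red and the 19 called lower are blue; Avl9, Fbxl20 and Noct stand above the cloud, and Lars2, Nopchap1 and Tmem38b below the line of equal levels.

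The number of calls depended strongly on the fit and on single libraries. With only the 6 libraries compared, 3 genes were higher (Avl9, Fbxl20 and Racgap1, the last a GTPase-activating protein of the cytokinetic spindle) and 4 were lower (Lars2, Nopchap1, Tmem38b and 1 gene without a symbol). That fit tested 2730 genes. Several genes missed the threshold there by little, among them Hjurp, Gigyf1 and Dvl1, which shared an adjusted p of 0.0509 in the same edgeR test. Without replicate 3 of the isoform without exon 5, the higher genes were Actn1, Avl9, Fbxl20, Noct, Oxct1, P2rx7, Phldb1 and Racgap1, and Lars2 was the lower one. The other calls named below were lost without that library, which also leaves fewer libraries to the fit. Counts of higher genes were 243 without replicate 1 and 188 without replicate 2. Without input replicate 2, the deepest input, 1370 genes were higher, and without input 1 or input 3, 463 and 505 were. With the replicate numbers of the column headers as a block, added after seeing the data, 392 genes were higher and 11 lower. Scaling by gene totals, which keeps the lower 3' UTR share of the immunoprecipitates, left 7 higher genes (Actn1, Avl9, Fbxl20, Hs6st1, Noct, P2rx7 and Phldb1) and 10 lower ones. Over 23 settings, the reported one included, 281 of the higher and 8 of the lower genes passed in at least 15. All 612 higher genes kept a positive and all 19 lower genes a negative log2 fold change in every setting that tested them. For the 439 higher genes at 0 in every input, that direction followed from the missing input counts, so it is no test of them. The settings also reuse the same libraries.

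**Figure D2:**
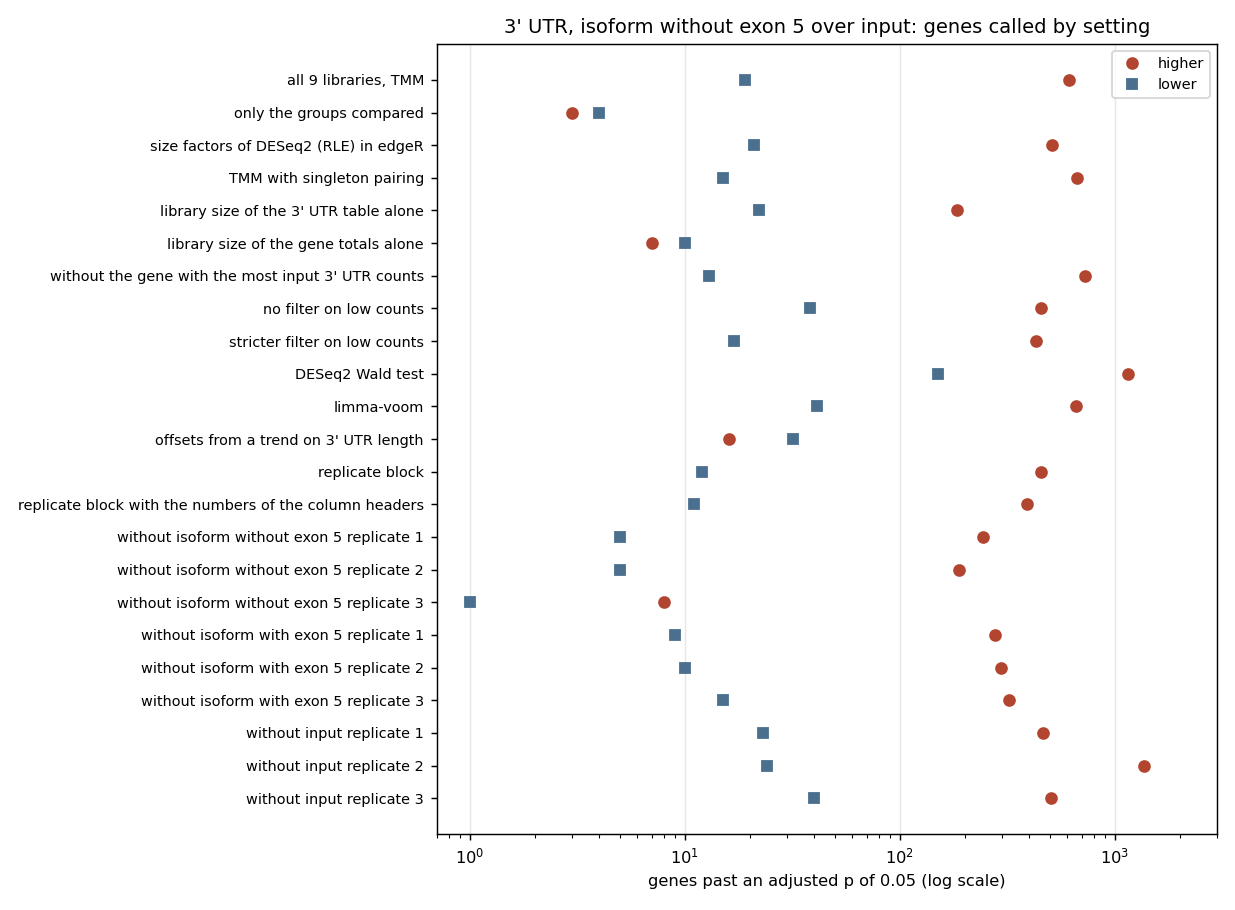
Genes with 3' UTR counts past the threshold in the isoform without exon 5 over input (horizontal axis, log scale), for each of 23 settings from top to bottom, higher genes as red circles and lower genes as blue squares. Higher calls ran from 3 with only the groups compared to 1370 without input replicate 2, and lower calls from 1 without replicate 3 of the isoform without exon 5 to 150 with DESeq2.

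Avl9, whose relative in yeast acts late in the secretory pathway, had the highest 3' UTR level in the isoform without exon 5. The gene (ENSMUSG00000029787.10) lies on chromosome 6, 56714839 to 56761912 in GRCm38.p6, with a 3' UTR of 4709 bases. Its 3' UTR held 3398, 5454 and 10288 counts in the isoform without exon 5, against 72, 205 and 82 in the inputs. Mean levels were 23575 ± 4812 CPM and 1480 ± 770 CPM (SD, n = 3 each), and the groups did not overlap. The log2 fold change was 3.99 (SE 0.47, adjusted p 0.00016), and Avl9 passed in all 23 settings. Fbxl20, the substrate-binding F-box subunit of an SCF ubiquitin ligase (chromosome 11, 98082554 to 98150921; 3' UTR of 7389 bases), was the next highest. It held 1962, 3326 and 7578 counts in the isoform without exon 5, against 50, 145 and 85 in the inputs, a log2 fold change of 3.72 (SE 0.53, adjusted p 0.00155) that also passed in all 23 settings. All 3 immunoprecipitates stood above all 3 inputs for both genes.

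Noct encodes nocturnin, a circadian phosphatase related to deadenylases, and lies on chromosome 3, 51224447 to 51251654. Its 3' UTR of 1115 bases held 1152, 1911 and 3587 counts in the isoform without exon 5, against 43, 51 and 9 in the inputs, and the log2 fold change was 4.27 (SE 0.66, adjusted p 0.00405). Hjurp, the chaperone that loads the centromeric histone CENP-A, held 874, 1825 and 2508 counts, against 5, 18 and 64 in the inputs, where replicate 3 had most of them. Hjurp overlaps the RefSeq gene Mroh2a, so its reads may be shared. Racgap1 (chromosome 15, 99620496 to 99651656) varied little among the immunoprecipitates: it held 782, 1291 and 1673 counts, against 33, 32 and 18 in the inputs, or 4822 ± 361 CPM and 349 ± 87.6 CPM. The fold change was 3.79 on the log2 scale (SE 0.65, adjusted p 0.00728). Irs2, a docking protein of insulin signalling (chromosome 8, 10984681 to 11008929), held 1079, 1791 and 2750 counts, against 75, 114 and 77 in the inputs, with a smaller log2 fold change of 2.66 (SE 0.54, adjusted p 0.0143). Peg3, a paternally expressed zinc finger gene, held 766, 1190 and 3107 counts, against 137, 56 and 11 in the inputs, a log2 fold change of 2.81 (adjusted p 0.0251). For each of these genes the groups did not overlap in CPM, although the inputs of Peg3 and Hjurp differed widely among themselves.

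**Figure D3:**
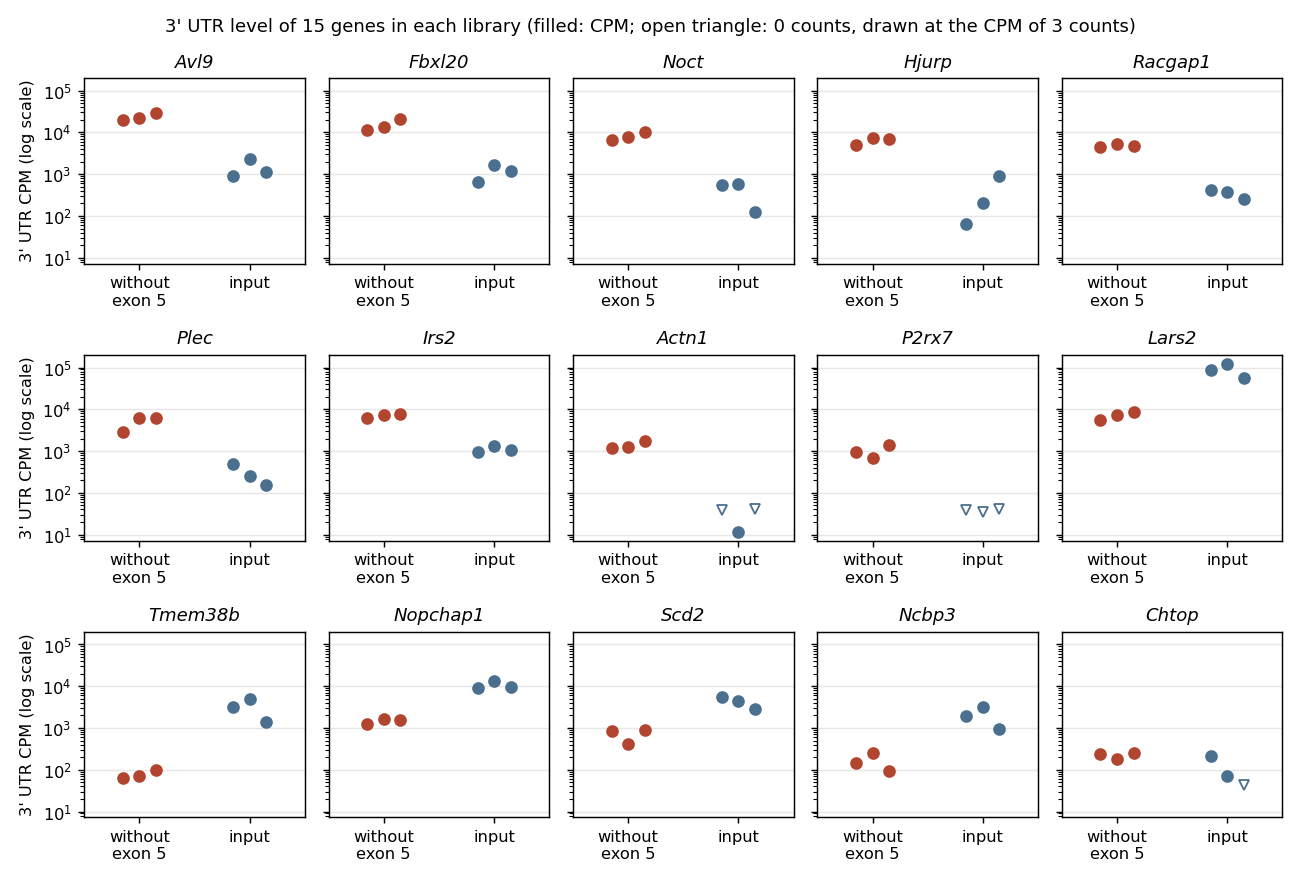
3' UTR level of 15 genes in each library in CPM (vertical axis, log scale), with the 3 libraries of the isoform without exon 5 in red on the left and the 3 inputs in blue on the right of each panel; open triangles mark 0 counts, drawn at the CPM of 3 counts. Of the panels, 9 show higher genes without overlap of the groups, from Avl9 to P2rx7, the panels of Lars2, Tmem38b, Nopchap1, Scd2 and Ncbp3 show the reverse, and the groups of Chtop overlap.

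Levels per kilobase of annotated 3' UTR adjust for length alone, not for the amount of each mRNA. The highest in the isoform without exon 5 were those of Noct at 7326 CPM per kilobase, Lars2 at 7315, Grina at 5636, Avl9 at 5006, Racgap1 at 4083 and Sptan1 at 3542. In the inputs the same genes stood at 379, 89283, 228, 314, 295 and 207 CPM per kilobase in that order. Lars2 was thus among the densest 3' UTRs in the immunoprecipitates although it fell against input. Sptan1, which encodes the cytoskeletal protein alpha-spectrin, owed its place to 1 library, with 607, 23 and 69 counts in the isoform without exon 5, against 0, 12 and 6 in the inputs, and missed the threshold (adjusted p 0.0635).

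The steepest fold changes among genes with at least 10 input counts and a count in at least 2 inputs were those of 9430015G10Rik (log2 fold change 5.43), Gigyf1 (5.18), Grina (4.60), Slc25a37 (4.52) and Ubr2 (4.31), and all 57 higher genes with at least 10 input counts ranged from 2.56 to 5.43. Gigyf1, an adaptor of a translational repressor complex, held 169, 354 and 766 counts in the isoform without exon 5, against 2, 6 and 2 in the inputs (SE 0.98, adjusted p 0.0115). Grina, a transmembrane protein of the TMBIM family, held 357, 657 and 1570 counts, against 1, 31 and 0 in the inputs, so that a single input carried nearly all of its input level. Slc25a37, the iron importer mitoferrin-1 of mitochondria, and Ubr2, a ubiquitin ligase of the N-degron pathway, passed with adjusted p of 0.0191 and 0.0232. Fgfr1, a receptor of fibroblast growth factors, had 889 of its counts in replicate 3 and 48 and 58 in the others, against 5, 9 and 0 in the inputs, and its call passed in 6 of 23 settings.

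For genes at 0 in every input, only a least fold can be given, set against the level that 3 counts in each input would make (38.5 CPM on average). These bounds ran from 1.85 to 27.8 over the 439 genes, with a median of 4.63. They hold on the TMM scaling only, with factors of 0.700 to 0.921 in the immunoprecipitates and 0.998 to 1.83 in the inputs. Without these factors they would be lower. P2rx7, an ATP-gated cation channel (chromosome 5, 122643927 to 122692336), held 164, 169 and 485 counts in the isoform without exon 5, against 0 in every input, and was at least 26.0-fold higher (adjusted p 0.00734). Leaving out its highest immunoprecipitate gave at least 21.3-fold. Phldb1, a protein with a pleckstrin homology domain, was at least 23.7-fold higher (adjusted p 0.00823), with 130, 180 and 445 counts against 0 in every input. Thrap3, a nuclear RNA-binding protein tied to transcription and splicing, was at least 23.0-fold higher, Dvl1, a Wnt signal transducer, at least 21.8-fold, Ubn1, a histone chaperone subunit, at least 21.4-fold and Fnip1, a partner of folliculin, at least 19.7-fold, each with adjusted p 0.0115. Dvl1 overlaps the RefSeq gene Tas1r3. Ambra1, an autophagy regulator, had the highest bound at 27.8-fold, but held 46, 76 and 935 counts, and without replicate 3 its bound was 7.47-fold. The importin gene Ipo13 likewise held 413, 21 and 51 counts, and its bound of 22.7-fold became 2.97-fold without replicate 1. Over all higher genes, 27 had more than 75% of their immunoprecipitate CPM in 1 library.

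Of the 19 lower genes, 10 had a symbol, against 606 of the 612 higher ones. Some symbols come from a deposited table limited to genes seen in the immunoprecipitates, so the named lower genes are fewer than the data hold. Lars2 (ENSMUSG00000035202.8; chromosome 9, 123366927 to 123462675; 3' UTR of 989 bases) held 983, 1845 and 3034 counts in the isoform without exon 5, against 6686, 10714 and 3942 in the inputs. It took 0.524% to 0.634% of all 3' UTR counts in the immunoprecipitates and 10.1% to 12.3% in the inputs. The log2 fold change was −3.61 (SE 0.38, adjusted p 3.78e-05), and Lars2 passed in 22 of 23 settings, the remaining one being the setting that left it out. Nearly all of its counts lay in the 3' UTR, 95.8% in the isoform without exon 5 and 99.9% in the inputs.

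Tmem38b, a cation channel subunit of the endoplasmic reticulum (chromosome 4, 53825988 to 53862019), held 11, 18 and 35 counts in the isoform without exon 5, against 250, 440 and 98 in the inputs. It fell by 5.34 on the log2 scale (SE 1.10, adjusted p 0.0143) and had no CDS count in either group. Nopchap1, a chaperone for nucleolar ribonucleoprotein assembly, held 214, 401 and 563 counts, against 712, 1137 and 691 in the inputs (a log2 fold change of −2.85, SE 0.56, adjusted p 0.0116). Its 3' UTR is annotated at 122586 bases in the deposited length table, and with offsets from a trend on 3' UTR length its log2 fold change was −0.26. Ncbp3, a cap-binding protein that takes part in mRNA export, held 25, 62 and 34 counts, against 154, 281 and 69 in the inputs (log2 fold change −3.65, adjusted p 0.0241). Scd2, a stearoyl-CoA desaturase of lipid synthesis, held 145, 100 and 316 counts, against 435, 387 and 198 in the inputs (log2 fold change −2.59, adjusted p 0.03). Rabggtb (−4.07), Pam (−3.96) and Fstl1 (−3.60), which encode a Rab prenyltransferase subunit, a peptide-amidating enzyme and a secreted glycoprotein, were also lower. All immunoprecipitates of these genes lay below all inputs in CPM.

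Chtop itself was counted on its own 3' UTR of 2557 bases (chromosome 3, 90498539 to 90509527), with 41, 44 and 88 counts in the isoform without exon 5, against 17, 6 and 0 in the inputs. The sources used here do not say whether the induced cDNA carried this 3' UTR. The groups overlapped after scaling, with 221 ± 37.6 CPM and 96.0 ± 112 CPM, and the log2 fold change of 1.19 (SE 1.17, adjusted p 0.538) missed the threshold. It turned to −0.77 with the length offsets and to −0.27 by gene totals.

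Among genes of mRNA export and the TREX complex, 6 of 17 tested entries were higher (35.3%, beside 12.3% of all genes tested). Ncbp3 alone was lower (1 entry, beside 0.381% of all genes). The median log2 fold change was 4.13, beside 1.41 over all genes tested. With inputs at 0 set to their bound it was 1.20, beside 0.96. Of the 17 entries, 7 were at 0 in every input, beside 21.4% of all genes tested. The 6 higher entries include Zc3h11a under 2 gene identifiers with nearly the same counts, and the 35.3% counts both. They are thus 5 genes: Ddx39a, Ddx39b, Pcid2, Poldip3 and Zc3h11a. Ddx39b, the helicase that Chtop stimulates, held 66, 86 and 83 counts in the isoform without exon 5, against 0 in every input, and was at least 8.36-fold higher (adjusted p 0.0171). Zc3h11a, a zinc finger protein of TREX, held 181, 250 and 377 counts under 1 identifier, against 0, 15 and 0 in the inputs, and its annotation overlaps Zbed6. Of the nuclear pore and transport receptor genes, 3 of 31 were higher (9.68%, near the 12.3% of all genes), Xpo6, Ipo9 and Ipo13. Their list had a median of 2.28, or 1.51 at the bound. The export receptor gene Xpo6 held 78, 128 and 342 counts, against 0, 3 and 0 in the inputs, a ratio of pooled counts of 55.5 (95% exact interval 18.9 to 270.1, counting error only).

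Regulators that bind 3' UTRs themselves had 2 of 32 higher (Stau1 and Fmr1, 6.25%, beside 12.3% of all genes tested) and a median log2 fold change of 0.80. Stau1, a double-stranded RNA-binding protein of mRNA localisation, held 80, 45 and 89 counts in the isoform without exon 5, against 0 in every input, and was at least 7.77-fold higher (adjusted p 0.0197). For the microRNA and deadenylation machinery, 1 of 34 was higher (2.94%), the deadenylase gene Pan2 (at least 3.36-fold), with a median of 0.89. None of 13 cleavage and polyadenylation genes passed in either direction, and their median was 0.61. Among them Cpsf7, a subunit of cleavage factor I, held 72, 100 and 190 counts, against 26, 11 and 0 in the inputs (log2 fold change 1.55, adjusted p 0.394). SR proteins, hnRNPs and splicing regulators had 8 of 56 higher (14.3%) with a median of 1.40, both near the values of all genes tested. Hnrnpd, which binds AU-rich elements, held 31, 168 and 294 counts, against 0, 4 and 0 in the inputs (log2 fold change 5.07, adjusted p 0.0295). Hnrnpul1 held 81, 169 and 98 counts, against 0, 2 and 0, a pooled ratio of 52.9 (14.5 to 438.6). Translation factors had 2 of 25 higher (8.0%), Eif4g3 and Eif2ak1. Of 48 named ribosomal protein genes only Rpl5 and Rpl22 had enough counts to be tested, neither past the threshold.

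Chromatin regulators had 12 of 60 higher (20.0%, beside 12.3% of all genes tested) and none lower, with a median log2 fold change of 2.59, or 1.89 at the bound. Tet2, which oxidises 5-methylcytosine, held 190, 696 and 1486 counts in the isoform without exon 5, against 13, 25 and 12 in the inputs (a log2 fold change of 3.69, SE 0.85, adjusted p 0.0169). Trrap, a scaffold of histone acetyltransferase complexes, was at least 17.3-fold higher (adjusted p 0.0115) and Kat6a, an acetyltransferase, at least 11.7-fold (adjusted p 0.0156). Nipbl, the loader of cohesin, held 86, 121 and 277 counts, against 0, 2 and 0 in the inputs, a pooled ratio of 73.6 (20.3 to 609). Zfp zinc finger genes were called at about the rate of all genes, 14 of 111 (12.6%). Zfp280b held 91, 193 and 390 counts, against 1, 0 and 0 in the inputs, a pooled ratio of 205 (36.7 to 8106), and Zfp217 was at least 12.9-fold higher. Of 27 sympathetic and neural transcription factors, 1 was higher (Zfhx2, 3.70%), and of 10 immediate-early or intronless transcription factors none passed.

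Ubiquitin ligases and proteases, one of the larger lists, had 28 of 115 higher (24.3%, beside 12.3% of all genes) and none lower, with a median of 2.67, or 1.40 at the bound. Of the 115, 37 were at 0 in every input, beside 21.4% of all genes tested, and such genes could be called higher alone. Beside Fbxl20 and Ubr2, Usp48, a deubiquitinase, held 270, 445 and 1170 counts in the isoform without exon 5, against 19, 21 and 0 in the inputs (log2 fold change 3.76, adjusted p 0.0296). Mycbp2, a large ligase of axon and synapse development, was at least 11.3-fold higher, with 78, 59 and 219 counts against 0 in every input. MAP kinase and insulin signalling had 8 of 47 higher (17.0%) and a median of 2.27. Rictor, the defining subunit of mTORC2, held 235, 255 and 643 counts, against 16, 2 and 11 in the inputs (log2 fold change 3.45, adjusted p 0.0291), and Irs1 held 167, 119 and 266, against 0, 5 and 0 (adjusted p 0.0232). Nf1, a Ras GTPase-activating protein, was also called, with 50, 94 and 389 counts against 0, 0 and 3, at a locus shared with Evi2 and Omg genes. Wnt, TGF-beta and Notch signalling had 4 of 26 higher (15.4%, near the 12.3% of all genes), Dvl1, Maml1, Maml3 and Sufu, of which the Notch coactivator gene Maml3 held 279, 562 and 1121 counts, against 17, 33 and 30 in the inputs (log2 fold change 2.79, adjusted p 0.0278).

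Ion channel genes had 9 of 30 higher, beside 12.3% of all genes tested. Their median was 2.27, or 1.58 at the bound, beside 1.41 and 0.96 over all genes tested. Of the 30, 6 were at 0 in every input, beside 21.4% of all genes tested. Clcn3, a chloride-proton exchanger of endosomes, held 277, 527 and 743 counts in the isoform without exon 5, against 18, 29 and 15 in the inputs (a log2 fold change of 2.90, SE 0.81, adjusted p 0.0296). Trpm2, a calcium-permeable channel, held 51, 97 and 173 counts, against 0, 3 and 0, a pooled ratio of 32.5 (11.0 to 158.6). Cacnb1, a calcium channel subunit, was at least 9.72-fold higher but overlaps the ribosomal protein gene Rpl19. Among solute carriers, 14 of 77 were higher (18.2%), with a median of 1.49. They include Slc18a2, the vesicular monoamine transporter, which held 488, 642 and 1538 counts, against 21, 85 and 12 in the inputs (log2 fold change 2.78, adjusted p 0.032). Axon guidance had 3 of 20 higher (15.0%, near the 12.3% of all genes), Plxna3, Sema4b and Sema4g. Synaptic genes had 1 of 28 (3.57%), the adhesion protein Nlgn2. It held 175, 292 and 1311 counts, against 0, 14 and 0 in the inputs (log2 fold change 5.14, adjusted p 0.0238).

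The microtubule and actin cytoskeleton had 5 of 32 higher (15.6%). Plec, the cytolinker plectin, held 505, 1499 and 2172 counts in the isoform without exon 5, against 38, 22 and 11 in the inputs (a log2 fold change of 4.07, SE 0.76, adjusted p 0.0115). Actn1, an actin crosslinker, held 203, 303 and 615 counts, against 0, 1 and 0, a pooled ratio of 341 (61.0 to 13474), and passed in 22 of 23 settings with adjusted p 0.00469. Motor protein genes had 3 of 26 higher (11.5%, beside 12.3% of all genes tested), Kif14 and Kif26a among them. Cell cycle genes had 4 of 21 (19.0%: Hjurp, Racgap1, Cdc25b and Top2a) and DNA repair genes 3 of 16 (18.8%: Brca1, Ercc2 and Rad54l2). At 0 in every input were 3 of the 21 and 6 of the 16, beside 21.4% of all genes tested. Top2a, the mitotic topoisomerase, held 53, 43 and 149 counts, against 0 in every input (at least 7.81-fold, adjusted p 0.0177). The calls of Brca1, Ercc2, Rad54l2 and Cdc25b passed in 8 or fewer of 23 settings.

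At the other end, secretory pathway and glycoprotein genes had none of 28 past the threshold and a median log2 fold change of −0.56. Heat shock proteins and chaperones had 1 of 33 higher (Dnajc11, 3.03%, beside 12.3% of all genes) and a median of −0.18. Vgf, a secreted neuronal polypeptide, held 231, 330 and 690 counts in the isoform without exon 5, against 141, 226 and 114 in the inputs (log2 fold change −0.38, adjusted p 0.799). Itga6, an integrin chain, held 218, 92 and 529 counts, against 3, 46 and 87 (log2 fold change 0.80, adjusted p 0.633). Lipid and cholesterol synthesis had none of 16 higher, 1 lower (Scd2) and a median of 0.30. Without TMM factors, the medians of the immediate-early genes (−0.06), lipid synthesis (−0.30) and the neuroblastoma markers (−0.01) were below 0 in place of 0.51, 0.30 and 0.54. Offsets on 3' UTR length moved the median of all genes to −0.19, and the medians of several further lists were below 0 with them. Among these were cleavage and polyadenylation (−1.16), translation factors (−0.84), splicing regulators (−0.76) and 3' UTR-binding regulators (−0.73). Chromatin regulators (1.14), ubiquitin genes (1.11) and ion channels (1.21) were among the lists whose medians stayed above 0.

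**Figure D4:**
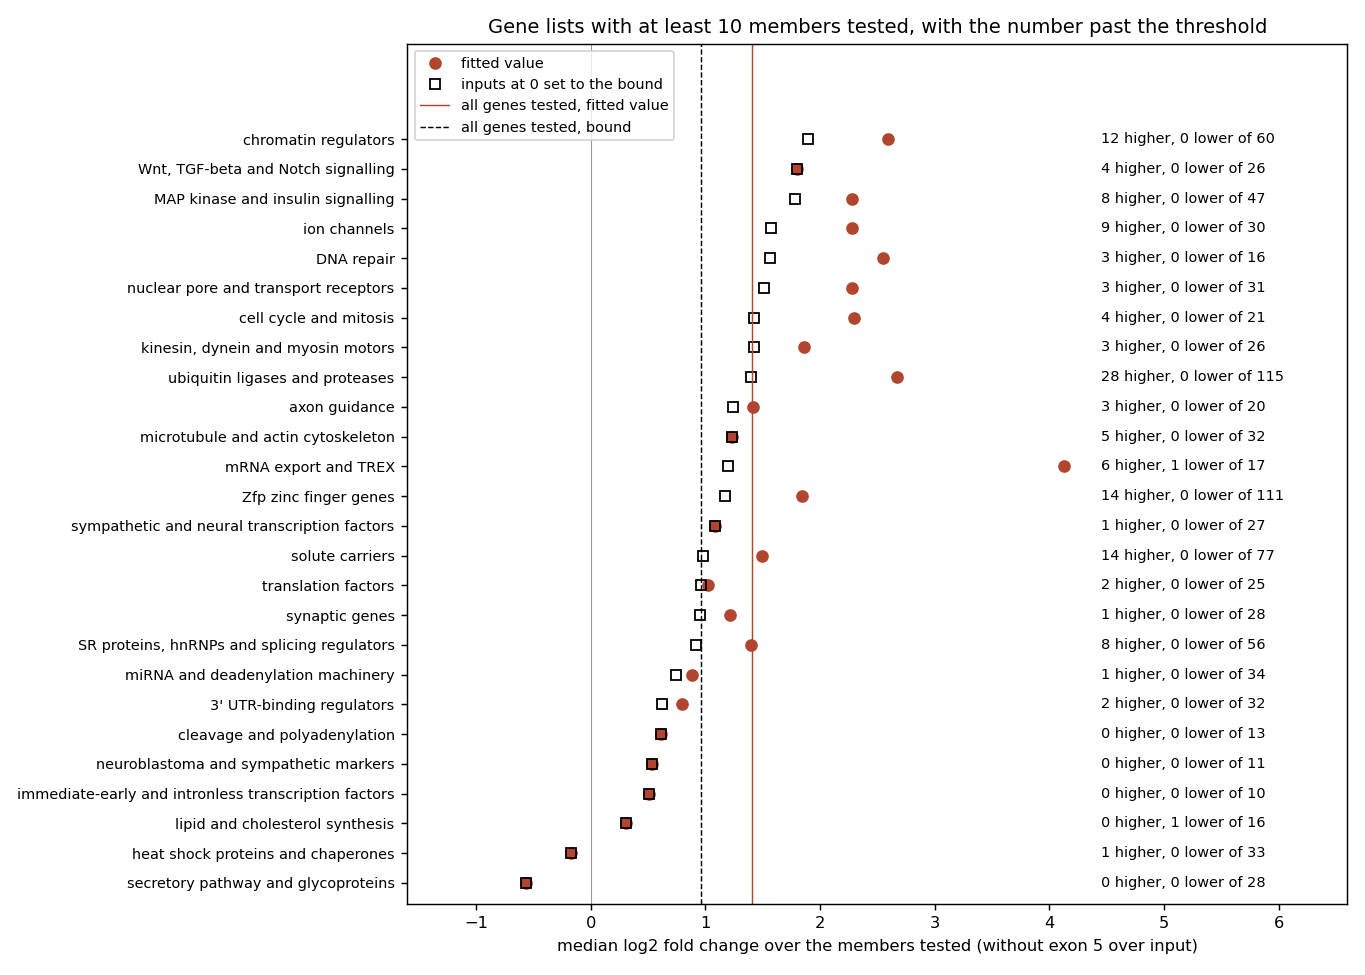
Median log2 fold change of 3' UTR counts, isoform without exon 5 over input (horizontal axis), over the tested members of each gene list with at least 10 of them; red circles are fitted values, open squares the values with genes at 0 in every input set to their bound, and the vertical lines the medians of all genes tested (1.41 solid, 0.96 dashed). Chromatin regulators, ubiquitin genes, ion channels and MAP kinase and insulin signalling lie right of both lines, secretory genes and chaperones lie left of 0, and the text at the right gives the members past the threshold.

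The labelled cell type was checked against its markers on the same 3' UTR counts. Of 25 listed neuroblastoma and sympathetic markers, 16 had a named 3' UTR entry. Of these, 14 had a count in the immunoprecipitates, among them Phox2a, Hand2, Alk and Tubb3, and none of the 11 tested passed the threshold. Their summed share of 3' UTR counts was 0.623% to 0.787% in the isoform without exon 5 and 0.532% to 0.789% in the inputs. Map1b, a microtubule-associated protein of neurons, made up much of it with 857, 1785 and 2399 counts, against 206, 373 and 122 in the inputs (a log2 fold change of 1.13, SE 0.52, adjusted p 0.135). Of 29 listed markers of glia, immune, epithelial, endothelial, muscle and liver cells, 15 had a named 3' UTR entry. Of these, 3 had a count in the immunoprecipitates, and the summed share was at most 0.00825% there and 0.0283% in the inputs. Markers without a named entry could not be read, and some symbols come from genes seen in the immunoprecipitates. As the cells were pooled in each library, more cells with an RNA and more RNA per cell cannot be told apart.

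By 3' UTR length, the share of genes called higher was 13.1% of 267 tested genes under 500 bases, 15.3% of 770 from 500 to under 1000 bases, 14.5% of 1456 from 1000 to under 2000, 12.1% of 1669 from 2000 to under 4000 and 5.60% of 822 with 4000 bases or more. The 3' UTRs of the higher genes had a median length of 1652 bases and those of the lower genes 1922 bases. Along the same classes the median log2 fold change was 2.48, 2.53, 1.85, 1.28 and 0.51. The share of tested genes at 0 in every input moved with it, at 44.6%, 35.1%, 25.0%, 15.6% and 6.57%. With those genes set to their bound, the medians were 0.64, 1.07, 1.14, 1.02 and 0.44, with no single direction along length. Spearman's correlation of the log2 fold change with 3' UTR length was −0.22 over the 4984 tested genes, −0.084 at the bound and 0.038 among genes with at least 10 input counts, which share the libraries and differ in depth. With CDS length it was 0.23. Median counts per gene rose along the classes from the shortest to the longest, with 58, 78, 92, 102 and 113 in the isoform without exon 5, against 4, 6, 10, 15 and 28 in the inputs. Epn1, an endocytic adaptor with a 3' UTR of 401 bases, stood at one end with 73, 44 and 178 counts against 0 in every input (at least 9.55-fold, adjusted p 0.0171), and Avl9 and Fbxl20 at the other.

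Taken over all 3' UTR counts, genes with 2000 to under 4000 bases held 36.6% ± 0.58 of the counts in the isoform without exon 5 and 27.7% ± 2.11 in the inputs. Genes with 500 to under 1000 bases held 12.2% ± 0.48 and 21.7% ± 0.98. Those with 4000 bases or more held 21.1% ± 0.37 and 23.1% ± 0.72 (SD, n = 3 each). In these 3 classes the libraries of the 2 groups did not overlap, with a two-sided exact permutation p of 0.1 each, the smallest possible (0.167 after adjustment over the 5 classes). The classes under 500 bases (3.99% ± 0.35 and 4.46% ± 0.44) and from 1000 to under 2000 bases (26.1% ± 0.32 and 23.0% ± 3.24) overlapped, with p of 0.2 and 0.4. The difference for 500 to under 1000 bases was carried by Lars2: without that gene, −9.43 percentage points became 0.28. Without Lars2 the difference was 5.45 points for 2000 to under 4000 bases and −4.94 points for 4000 bases or more.

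**Figure D5:**
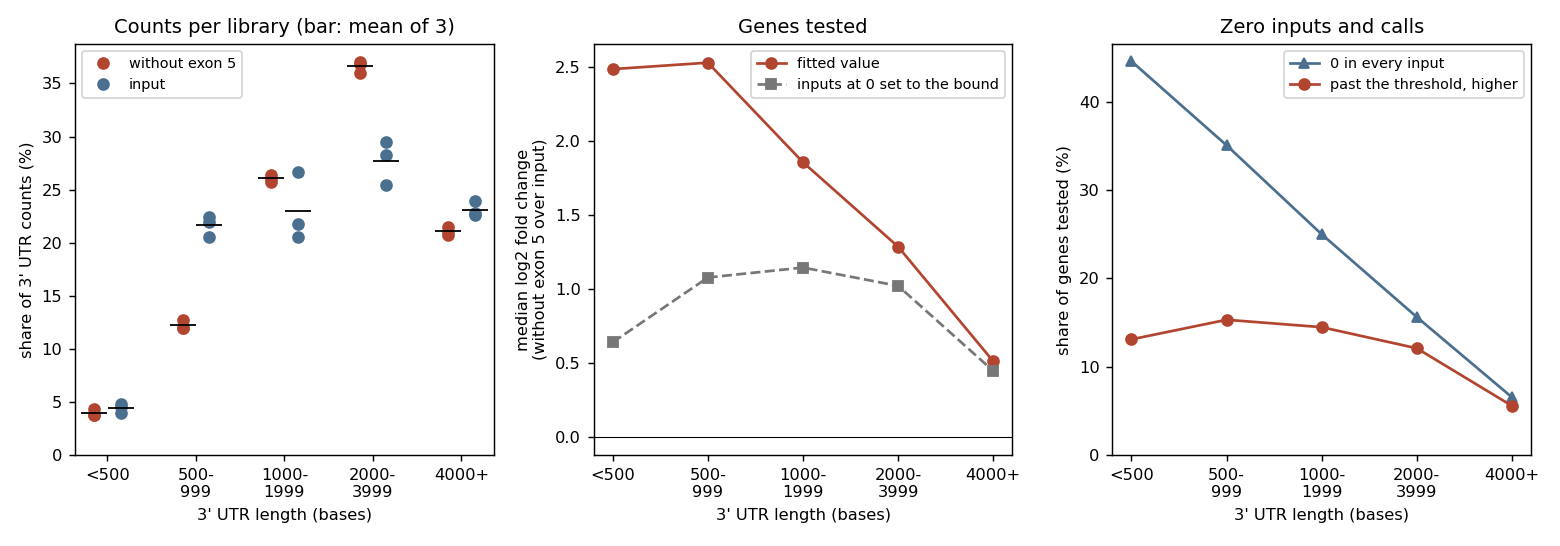
By 3' UTR length class in bases (horizontal axes), the left panel gives each library's share of 3' UTR counts in percent (red: isoform without exon 5; blue: input; bar: mean of 3), the middle panel the median log2 fold change of the genes tested (red: fitted; grey: inputs at 0 set to the bound) and the right panel the percent of tested genes called higher (red) and at 0 in every input (blue). The fitted median ran from 2.48 in the shortest class to 0.51 in the longest, and the share of genes at 0 in every input from 44.6% to 6.57%.

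Whether the enrichment of a gene's 3' UTR differed from that of its own CDS was tested in 1 fit of both parts. None of 5145 genes passed in either direction (0%), while 723 had an unadjusted p under 0.05, 524 of them negative and 199 positive, and the smallest adjusted p was 0.262 (edgeR quasi-likelihood test). The median interaction was −0.94 on the log2 scale, and single genes have to be read against it, since the 3' UTR share differed between the library kinds. At the positive end, Actn1 had 41.0% of its part counts in the 3' UTR in the isoform without exon 5 and 1.18% in the inputs, where 84 CDS counts stood beside 1 3' UTR count. Pde10a, a phosphodiesterase of cyclic nucleotides, had 381 3' UTR and 343 CDS counts in the isoform without exon 5, against 0 and 92 in the inputs. Lamc1, a laminin chain, had 119 and 217, against 0 and 114. At the negative end, Cbx5, which encodes heterochromatin protein HP1 alpha, had 501 3' UTR and 381 CDS counts in the isoform without exon 5, against 433 and 0 in the inputs. Dpysl3, an axon growth protein, had 65 and 225, against 174 and 0, and Nopchap1 1178 and 188, against 2540 and 0. Scd2, called lower on its 3' UTR, had 30.4% of its part counts there in the isoform without exon 5 and 79.5% in the inputs.

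Set directly against the isoform with exon 5, in the same fit of all 9 libraries, no 3' UTR of 4984 passed in either direction (0%), with 93 at an unadjusted p under 0.05 and a smallest adjusted p of 0.999. DESeq2 and limma-voom also called none. The inputs, which this contrast does not use, entered the shared spread of that fit. Fitted with the immunoprecipitates alone, none passed either, but 277 of 4616 genes had an unadjusted p under 0.05 in the same edgeR test. The lack of calls therefore does not show that the isoforms are alike. Avl9 had 20992 ± 4127 CPM with exon 5, and the difference of the isoform without exon 5 from it was 0.17 on the log2 scale (SE 0.42). For Fbxl20 the difference was 0.52 (SE 0.48), for Noct 0.52 (SE 0.58) and for Lars2 0.61 (SE 0.34). Among the lowest p-values, Armc8, a subunit of the CTLH ubiquitin ligase, held 15, 17 and 49 counts without exon 5 and 0 in every library with exon 5, and Tmbim6 47, 61 and 392 against 0, 6 and 8. In the other direction Taok3, a kinase, held 11, 7 and 24 counts without exon 5, against 38, 46 and 395 with it. In the authors' deposited table, whose log2 values run the other way (with over without exon 5), these genes stand at −6.91 for Armc8, −4.74 for Tmbim6 and 3.48 for Taok3. Those values come from the same libraries, and the genes were picked here by p-value, so they are no independent check.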

How the data were processed

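The authors deposited whole-number counts per gene for the 5' UTR, CDS and 3' UTR of 9 iCLIP libraries, per the file headers, with part lengths in bases and a table with log2 fold changes between the isoforms. Per the submitters' processing notes, reads were mapped to mm10, and TopHat2 and DESeq2 were used. The sources used here do not give the read filtering, counting tool, strand handling or collapse of reads by random primer bases. Intervals and floors therefore cover counting error only, and reads of overlapping or antisense genes cannot be told apart, which touches, beside those named in the text, Armc8, Cpsf7, Eif2ak1, Ercc2, Hnrnpd, Nipbl and Rpl5. Columns were matched to samples by line and primer, since the headers number inputs 1 and 2 the other way round. In all, 27 other columns of per-sample values were not used.

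Genes with NA in the 3' UTR table were left out, and library sizes came from that table. The test was edgeR 4.0.16 in R 4.3.3 (TMM, filterByExpr at a count of 10 and a total of 15 or more, robust quasi-likelihood F-test, all 9 libraries in 1 fit, no covariate), with Benjamini-Hochberg adjustment over all genes tested and a threshold of 0.05. The interaction of 3' UTR and CDS used the 6 libraries compared, with 1 term per library. The scripts were tested on simulated data. Shares were compared by exact permutation over libraries. P-values of the gene tests rest on the spread between all libraries in the fit, 3 a group, with information shared over genes. Among the inputs that spread includes differences between their lines. Where every input was at 0, the fold used the mean CPM of 3 counts per input library, and with 1 to 3 input counts a pooled ratio is given with its exact 95% interval, which leaves out the spread between libraries. Levels are CPM as mean ± SD (n = 3).

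Alternatives were the libraries in the fit, 5 other scalings, 2 other filters, DESeq2 1.42.0, limma-voom (limma 3.58.1), length offsets, replicate blocks and leaving out each library. Members, gene lists and rules were chosen with earlier results of these data known. Named genes have a symbol from the deposited tables. They are those of highest level, and those of steepest change or highest bound per direction without overlap of the groups. Those of lowest p per direction in the tests between parts and between isoforms were added. So were the called genes of each list and length class with the most counts, or tested members where a list had none called. Genes outside these rules were named where a count was small or to list the called members of a group, after their values were seen. Coordinates are RefSeq gene spans of GRCm38.p6, the assembly of mm10, matched by symbol. No sequence is shown.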

Additional observations from a re-analysis of the deposited data

How the results depend on the processing

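Against the 612 higher and 19 lower genes reported, fitting only the groups compared gave 3 and 4 of 2730 tested. Scaling by gene totals gave 7 and 10, and length offsets 16 and 32. By 3' UTR library size alone 184 were higher, and DESeq2 called 1153 higher and 150 lower. With no filter 38 were lower, and with limma-voom 41. Leaving out 1 library of the isoform without exon 5 or 1 input gave 8 to 1370 higher and 1 to 40 lower genes. Leaving out 1 library with exon 5, chosen after seeing the data, gave 278 to 322 higher and 9 to 15 lower. The cause was not tested, beyond fewer libraries or genes where these were left out. RLE factors, TMM with singleton pairing, leaving Lars2 out of the scaling and the stricter filter kept both counts within 1.5 times. Replicates were handled on separate days, but no label says that equal numbers mark a shared day, and the titles and column headers number inputs 1 and 2 differently. Deviations of same-numbered libraries without exon 5 and inputs correlated at 0.0036 to 0.0451 by title and 0.0084 to 0.0451 by header. With the title numbers as a replicate block 455 genes were higher and 12 lower, and with the header numbers, chosen after seeing the data, 392 and 11. Under the header block 21 of 80 named calls were lost. By header numbers, each of the 3 libraries without exon 5 correlated best with the input of the same number, and by title numbers 1 of 3. These inputs came from different lines, and no such correlation exceeded 0.0451. For replicate 2 the values were 0.0084 by header and 0.0036 by title, so which pairing holds cannot be told from them. The interaction of 3' UTR and CDS gave 1 higher and 27 lower genes with no filter, and from 0 to 1 lower (the 1 without input replicate 3) when a library was left out. The isoforms differed in 1 gene higher and 1 lower with no filter. Without Lars2, the share in the class of 500 to under 1000 bases differed by 0.28 percentage points in place of −9.43. The differences of the other shares kept their direction under every alternative run. Of 88 named genes followed, 77 lost their call under at least 1 alternative, and 5 that were not called reached the opposite sign. By gene totals Chtop was at −0.27, Map1b at −0.33 and Itga6 at −0.98. With length offsets Chtop was at −0.77, Map1b at −0.50, Cpsf7 at −0.51 and Itga6 at −1.86, by 3' UTR library size Itga6 was at −0.15, and without input replicate 2 Vgf was at 0.18. Depth limits the inputs most, where 3 counts are worth 34.5 to 42.2 CPM.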
